A study of Arabidopsis thaliana with 16 samples.

Results

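Peaks of H3K27me3, trimethylation of lysine 27 of histone H3, were compared between sorted guard cells of FAMA-LGK and wild-type (WT) Arabidopsis thaliana seedlings, over all genes and functions. The 2 deposited H3K27me3 peak lists held 15038 peaks on chromosomes 1 to 5, which were all taken, out of 47063 peaks in the 4 lists of the series. The WT list held 7386 and the FAMA-LGK list 7652. The other 2 lists, 32025 peaks of H3K4me3 from the same genotypes, were used only beside the H3K27me3 results.

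Aerial tissue was harvested from seedlings 12 days post germination and turned into protoplasts, cells without walls, from which guard cells were sorted by fluorescence (FACS). WT plants were compared with plants that carry the fama-1 mutation and the construct FAMAp:FAMA-LGK, in which the FAMA promoter drives a FAMA-LGK form of this guard cell transcription factor. The labels do not give the marker used in the sort, the number of lines or the number of plants in a pool. Each list stands for 2 ChIP libraries and 2 inputs, and both genotypes were precipitated with the same antibody lot. Since the replicates of a genotype are represented by 1 common list, the differences below have no replicate check, and they are given without tests or p-values. Sequencing depth is not known from the lists; unequal depth or peak calling cannot be told apart from unequal marking.

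H3K27me3 is written by Polycomb repressive complex 2 (PRC2) and marks genes that are kept silent, often over the whole transcribed body. In plants it is known for holding developmental regulators, and genes of other organs, stages and stress responses, off in cells that do not need them. H3K4me3 marks the starts of transcribed genes. Where both marks are listed at the same place in a sorted population, cells that carry one or the other cannot be told apart from nucleosomes that carry both.

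The H3K27me3 domains of the 2 genotypes were nearly the same in position, length and number, and most unshared sequence lay at the edges of shared domains or in short regions of low −log10 q, with exceptions such as those over TGG1 and PHO1 described below. The lists covered 17.2 Mb in WT and 17.4 Mb in FAMA-LGK. Of these, 15.8 Mb were shared, which was 91.8% of the WT and 90.4% of the FAMA-LGK covered sequence. Of the 1.40 Mb covered in WT only, 0.985 Mb lay at the edges or in gaps of regions that overlapped a FAMA-LGK region, and 0.417 Mb in regions that overlapped none. Of the 1.67 Mb covered in FAMA-LGK only, the corresponding lengths were 1.07 and 0.603 Mb. Most unshared sequence thus bordered a shared domain in each genotype.

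Matched one by one, 5549 WT regions paired with exactly 1 FAMA-LGK region each. A further 352 WT regions faced 740 FAMA-LGK regions, each WT region divided among several, and 738 WT regions faced 354 FAMA-LGK regions in the reverse way. In 93 groups several regions of each list were linked, 551 WT regions overlapped none, and 805 FAMA-LGK regions overlapped none. Divided and joined regions were therefore about as frequent in each direction. Over the 5549 pairs, the edges lay a median of 76 bp apart, 80.6% of edges were within 200 bp and 0.766% were over 1000 bp apart. The length in FAMA-LGK minus that in WT had a median of -4 bp, with quartiles of -140 and 146 bp. In FAMA-LGK 2718 regions were longer, 2817 shorter and 14 equal. Changes of 500 bp or more were rare, with 368 longer and 291 shorter.

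**Figure D1:**
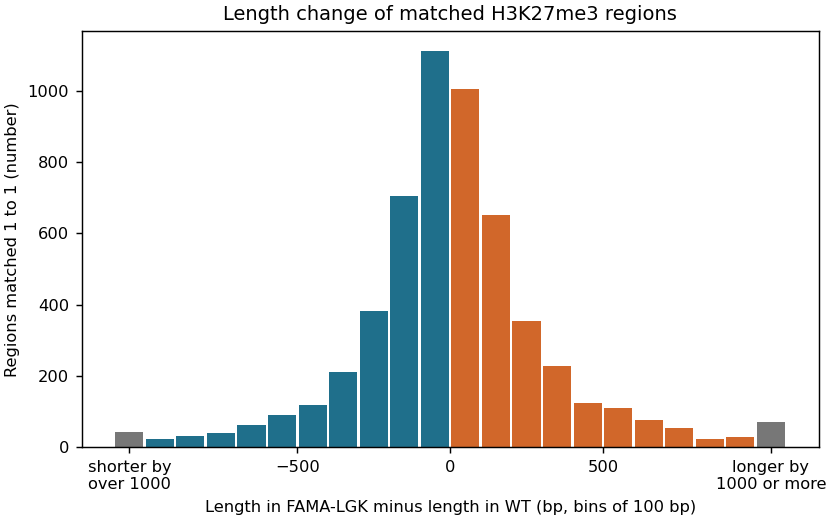
Number of H3K27me3 regions matched 1 to 1 (vertical axis) by length in FAMA-LGK minus length in WT in bins of 100 bp (horizontal axis), with blue bars for shorter and orange bars for equal or longer regions; grey end bars hold changes beyond 1000 bp. The bars on both sides of 0 are of similar height, with 1111 regions shorter by up to 100 bp and 1004 equal or longer by less than 100 bp.

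Strength and width set apart which regions were found in both lists. In the lowest decile of the WT list by the authors' −log10 q, a FAMA-LGK counterpart was found for 66.3% of regions (exact 95% interval 62.8 to 69.7%). In the lowest decile of the FAMA-LGK list a WT counterpart was found for 52.0% (48.4 to 55.5%). The shares were 95.7% and 93.5% in the fourth decile and 100% in the highest 2 deciles of each list. Of regions under 1000 bp wide, 78.4% of 2114 in WT and 71.6% of 2326 in FAMA-LGK were overlapped. All 728 WT and all 733 FAMA-LGK regions of 5000 bp or more were overlapped, and 97.3% and 96.96% of their sequence was shared. These intervals cover counting error only.

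**Figure D2:**
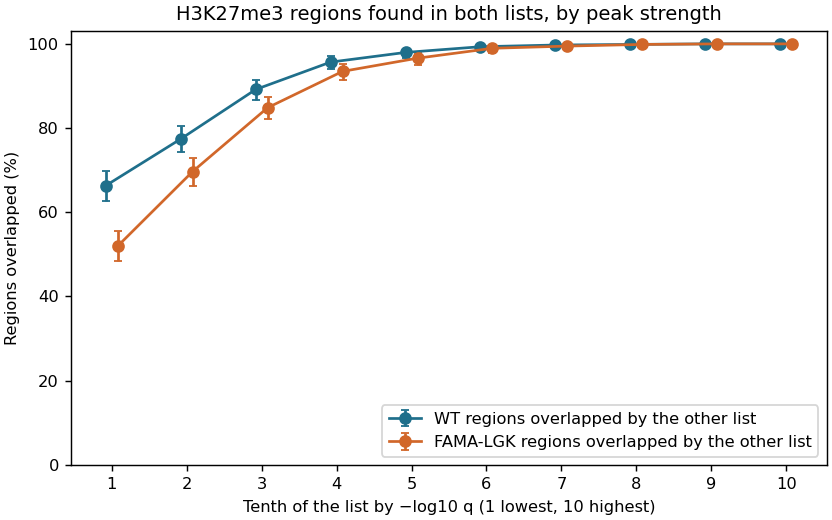
Share of H3K27me3 regions overlapped by the other list (vertical axis, %) in each decile of a list ordered by −log10 q (horizontal axis); points are shares and bars exact 95% intervals, blue for WT and orange for FAMA-LGK. Both curves start below 70% in the lowest decile and reach 100% in the highest 2 deciles.

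The longest domain was the same in both lists, at chromosome 3, 7724097 to 7752393 in WT and 7724071 to 7752372 in FAMA-LGK (TAIR10). It spans 9 protein-coding genes from AT3G21930 to AT3G22000. The WT copy was 28297 bp wide and covered for 99.9% by the FAMA-LGK list. The second longest, 24400 bp in WT on chromosome 1, holds the MADS-box gene AGL49 and the amino acid carrier gene UMAMIT35, and was 98.2% covered.

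Regions of 1 list alone were narrow, with a median width of 668 bp in WT against 635 bp in FAMA-LGK, and few were wide. Of 551 such WT regions 3 reached 2000 bp, and of 805 FAMA-LGK regions 5 did. The widest in WT lay at chromosome 3, 3281511 to 3285543, was 4033 bp wide, and had the authors' fold of 2.09. It touches LGO, a gene for an inhibitor of cyclin-dependent kinases that promotes endoreduplication of epidermal cells; LGO was picked out after its values were seen. Within the LGO body 621 bp were covered in WT, and 0 bp in FAMA-LGK. SIM, of the same inhibitor family and also picked out after its values were seen, differed in the other direction. It had 0 bp in WT against 398 bp in FAMA-LGK. The widest in FAMA-LGK, at chromosome 5, 9078549 to 9083280, was 4732 bp wide with a fold of 4.1 and covers TGG1, and another, 2477 bp wide, lies in PHO1. The folds are the authors' and are given within their own list.

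Where the genome is gene-poor, the lists differed more often in one direction. In bins of 500 kb with under 50 protein-coding genes, 44 of 196 FAMA-LGK regions (22.4%) had no WT counterpart, against 12 of 159 WT regions (7.55%) without a FAMA-LGK counterpart. In bins with 100 genes or more the shares were 9.93% and 7.70%. Of regions in 1 list alone, 379 of 551 in WT (68.8%) touched a protein-coding gene, and 425 of 805 in FAMA-LGK (52.8%). Among 3917 pseudogenes, 19 (0.485%) were covered by at least 50% in FAMA-LGK alone and 5 (0.128%) in WT alone, beside 128 in both. Among 926 transcribed pseudogenes the counts were 15, 12 and 238. Protein-coding genes reached 50% cover in FAMA-LGK alone at 1.18%, in WT alone at 1.2% and in both at 19.3%. By chromosome, 1.1 to 1.87% of protein-coding genes were called in WT alone, highest on chromosome 3 with 102 genes against 75 in FAMA-LGK alone.

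A protein-coding gene counted as called once 150 bp of its body or more lay inside regions, and its covered length is the number of such bp. Of 27444 genes, 6329 (23.1%) were called in both genotypes, 381 (1.39%) in WT but not FAMA-LGK, and 375 (1.37%) in FAMA-LGK alone. Genes called in both were covered over a median of 1242 bp in WT against 1238 bp in FAMA-LGK, and 3328 of them (52.6%) were covered for at least 90% in each. The covered length was equal at 2469 genes, longer in FAMA-LGK at 1766 and shorter at 2094. It was longer by 500 bp or more at 169 (2.67%) and shorter by as much at 153 (2.42%).

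Genes called in 1 genotype alone held short stretches, a median of 595 bp in WT against 564 bp in FAMA-LGK. The covered length reached 1000 bp at 54 WT genes and 43 FAMA-LGK genes. No region of the other list lay in the gene or within 1000 bp at 250 of the 381 (0.911% of all genes) and 237 of the 375 (0.864%). When each list was restricted to its stronger 50% of peaks by −log10 q, 40 of the 381 and 38 of the 375 kept their state and the others were called in neither list. The gene lists below and the 12 longest of each genotype held 136 such genes. These 12 have a symbol and no region of the other list within 1000 bp. Of the 136, PHO1, TGG1, NIA2, PYL2, IDL1, LCR21 and SWEET5 in FAMA-LGK and RAP2.9 and FER2 in WT kept their state. IDL1, LCR21 and FER2 had a region of the other list in the gene or within 1000 bp of it. At a −log10 q of 5 or more 349 of the 381 and 341 of the 375 kept their state.

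The functional groups were described with 43 gene lists that hold 3004 genes. In 32 lists the share called in both genotypes was above the 23.1% of all genes, and in 11 it was below. The median change in covered length of members called in both was 0 bp in 28 of the 41 lists with such members. In the lists as a whole, WT alone had 69 called genes and FAMA-LGK alone 55. Members in each genotype alone were found in 18 lists, in WT alone without any in FAMA-LGK alone in 8, the reverse in 8, and none in 9. A list with 1 or 2 such members among 100 lies at the background.

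**Figure D3:**
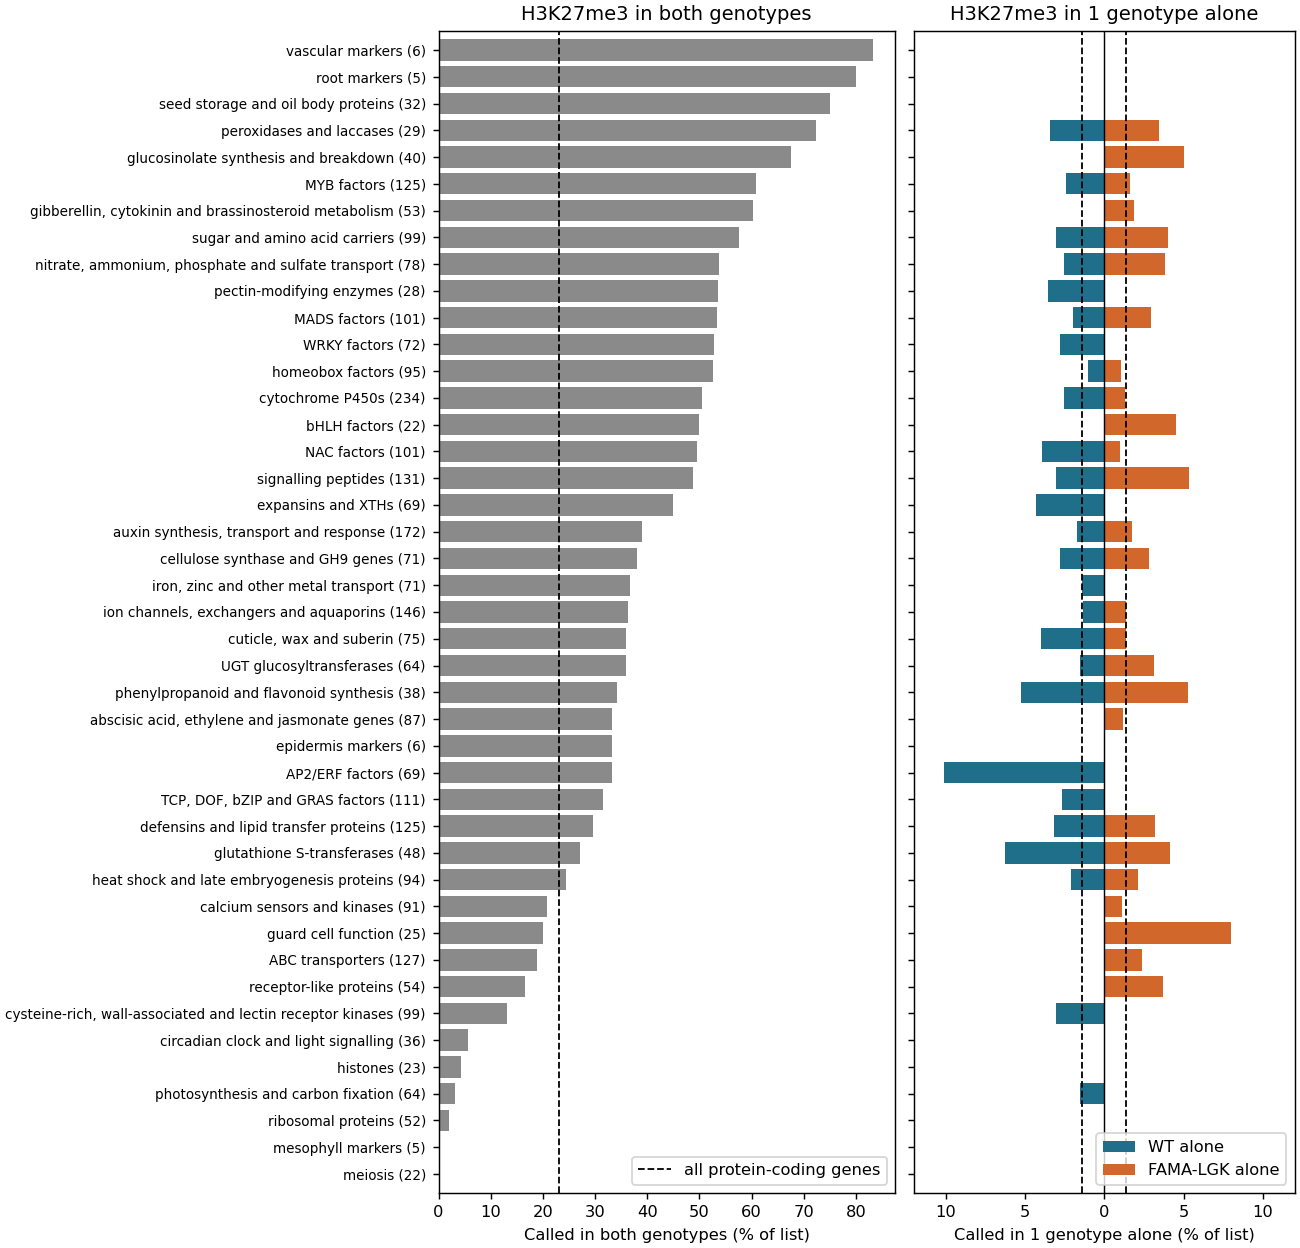
Share of each gene list (number of genes in brackets) called for H3K27me3 in both genotypes (left) and in 1 genotype alone (right, blue to the left for WT and orange to the right for FAMA-LGK), in % of the list; dashed lines mark the shares of all protein-coding genes, 23.1% on the left and 1.39% and 1.37% on the right. Vascular and root marker lists stand at the top on the left, meiosis and mesophyll lists at 0, and AP2/ERF factors reach furthest on the WT side.

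Lists of ribosomal protein, meiosis, clock and light signalling, photosynthesis and histone genes were nearly free of the mark in both genotypes. Of 52 ribosomal protein genes 1 was called, AT4G14320 (RPL36aB), with 537 bp in WT against 515 bp in FAMA-LGK. Of 22 meiosis genes none was called in either list. Of 36 clock and light signalling genes 2 were called, among them HFR1, a bHLH factor of shade responses, over its full 2265 bp in each. Of 64 photosynthesis and carbon fixation genes 2 were called in both, such as the carbonic anhydrase gene CA2 (1178 and 601 bp in WT and FAMA-LGK), and 1 in WT alone. Of 23 histone genes 1 was called, HTA4 (921 and 1467 bp).

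Seed storage genes and several large families were called in both genotypes well above the 23.1% of all genes. Of 32 seed storage and oil body genes 24 were called in both and none in 1 genotype alone; ABI3, a regulator of seed maturation, was covered over its full 3816 bp in each. Of 29 peroxidases and laccases 21 were called in both, such as LAC7 (3440 and 3374 bp). Of 40 genes of glucosinolate synthesis and breakdown 27 were called in both, such as MAM1, which lengthens the side chain (3830 and 3933 bp). MYB factors were called in both at 76 of 125, MADS factors at 54 of 101, homeobox factors at 50 of 95 and NAC factors at 50 of 101. FLC, a repressor of flowering and a known PRC2 target, was covered over its full 6067 bp in both genotypes, and NAC075 over its full 5710 bp.

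Glucosinolate breakdown held 2 genes called in FAMA-LGK alone. TGG1, a myrosinase that splits glucosinolates and is abundant in guard cells, had 0 bp in WT and its full 2933 bp in FAMA-LGK. Its H3K4me3 covered length, counted here and below over the gene body with 500 bp on each side, was 3625 bp in WT against 1442 bp in FAMA-LGK. TGG2, the neighbouring myrosinase gene, was covered over its full 3070 bp in both, by a region of 7040 bp in WT against 7102 bp in FAMA-LGK that stops before TGG1. The next gene on the other side, AT5G26010, had 0 and 765 bp, so that TGG1 and AT5G26010 form a run called in FAMA-LGK alone. NSP1, which directs the products of this breakdown towards nitriles, had 0 bp in WT against 1311 bp in FAMA-LGK, with 1532 and 0 bp of H3K4me3. The 38 other genes of the list held no call in 1 genotype alone.

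Transport and assimilation genes of nitrogen, phosphate and sulfate were called in both genotypes at 42 of 78, such as AT1G52190 (NPF1.2), with 4552 and 4485 bp. Called in FAMA-LGK alone were 3 genes, and each had over 50% of its body covered. PHO1, which exports phosphate, had 0 bp in WT against 3218 bp in FAMA-LGK, in 2 regions at chromosome 3, 8388923 to 8391399 and 8392696 to 8393436. The second of these coincides with a WT H3K4me3 region, and the H3K4me3 covered length of PHO1 was 700 bp in WT against 0 bp in FAMA-LGK. NIA2, a nitrate reductase, had 0 and 2093 bp of H3K27me3 and 3061 and 2543 bp of H3K4me3. AT2G26690 (NPF6.2), a nitrate transporter, had 0 and 1967 bp of H3K27me3 and 948 and 0 bp of H3K4me3. In WT alone were the ammonium transporter gene AMT1;4 (627 and 0 bp) and PTR6 (594 and 0 bp). Of 71 metal transport genes 26 were called in both and the ferritin gene FER2 in WT alone (233 and 0 bp). FRO2, a ferric reductase called in both, was among the genes with the largest difference, 2858 bp in WT against 1608 bp in FAMA-LGK, which turned to the reverse sign with the stronger 50% of peaks.

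Sugar and amino acid carriers were called in both at 57 of 99. MSS1 (STP13), a hexose importer, was one of the genes with the largest additional length in FAMA-LGK. It had 1318 bp in WT against 3054 bp in FAMA-LGK, where an additional region lay at chromosome 5, 9243684 to 9245324. H3K4me3 at MSS1 covered 3395 bp in WT against 1714 bp in FAMA-LGK. UMAMIT20, an amino acid carrier gene, had 0 bp in WT against 1791 bp in FAMA-LGK; there, a region of 3992 bp at chromosome 4, 5236572 to 5240563, spanned 2 WT regions of 779 and 561 bp that ended before the gene. SWEET5 (listed as AtVEX1), a sugar carrier gene, had 0 and 930 bp of H3K27me3 and 1562 and 414 bp of H3K4me3. SWEET16, a vacuolar sugar carrier, had 1068 bp in WT against 0 bp in FAMA-LGK, and UMAMIT45 875 and 0 bp.

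Among ion channels, exchangers and aquaporins 53 of 146 were called in both, such as CNGC4 (5037 and 5065 bp). KT2/3 (AKT2), a potassium channel of the phloem and guard cells, had 964 bp in WT against 0 bp in FAMA-LGK, with H3K4me3 of 0 and 859 bp. The tonoplast aquaporin gene TIP2 (TIP1;2) had 452 and 0 bp. In FAMA-LGK alone were the glutamate receptor-like gene GLR2.6 (0 and 439 bp) and the cyclic nucleotide-gated channel gene CNGC14 (0 and 411 bp), and CNGC14 had H3K4me3 of 881 and 0 bp. ABC transporters were called in both at 24 of 127 and in FAMA-LGK alone at 3. These counts are 18.9% (exact interval 12.5 to 26.8%) and 2.36% (0.490 to 6.75%) of the list. The intervals hold the shares of all genes, 23.1% and 1.37%. The 3 in FAMA-LGK alone were ABCG21 (0 and 790 bp), ABCG14, which exports cytokinin to the shoot (0 and 574 bp), and ABCB17 (0 and 475 bp). ABCG14 was not called at a −log10 q of 5 or more.

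Of 234 cytochrome P450 genes 118 (50.4%) were called in both genotypes, while 6 were WT alone and 3 FAMA-LGK alone. The longest was ROT3, of brassinosteroid synthesis and leaf length, with 4277 bp in WT against 3426 bp in FAMA-LGK. CYP76C4 (1075 and 0 bp) and CYP71B35 (1026 and 0 bp) led those called in WT alone, and neither was called at a −log10 q of 5 or more. CYP71B13 (0 and 964 bp) led those in FAMA-LGK alone. Of 48 glutathione S-transferase genes, which join glutathione to toxic compounds, 13 were called in both, or 27.1% (exact 95% interval 15.3 to 41.8%) beside 23.1% of all genes. In WT alone were 3, GSTU3 (727 and 0 bp), GSTU1 (632 and 75 bp) and GSTU23 (570 and 0 bp), of which GSTU1 alone was called at a −log10 q of 5 or more, and in FAMA-LGK alone 2, GSTL1 (0 and 1071 bp) and GSTF3 (0 and 445 bp). Of 38 phenylpropanoid and flavonoid genes 13 were called in both, such as PAL4 (3789 and 3797 bp). The 2 in WT alone were both 4-coumarate:CoA ligases of the step to lignin and flavonoids, 4CL2 (1966 and 0 bp) and 4CL1 (481 and 0 bp). The 2 in FAMA-LGK alone belong to flavonoid synthesis, the hydroxylase gene TT7 (0 and 450 bp) and the regulator gene MYB12 (0 and 418 bp). In each genotype alone, 2 genes are 5.26% of the list (exact 95% interval 0.644 to 17.7%). That interval holds the backgrounds of 1.39% and 1.37%. MYB12 had H3K4me3 of 726 and 0 bp. MYB12 was not called with equal numbers of peaks in the lists.

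Glucosyltransferases of the UGT85A cluster on chromosome 1 were less covered in FAMA-LGK at 3 neighbouring genes. UGT85A2 had 2081 bp in WT against 821 bp in FAMA-LGK, UGT85A5 1438 and 0 bp, and UGT85A3 2024 and 516 bp. WT regions ran at chromosome 1 from 7894822 to 7902469 in 5 pieces over these genes, whereas the FAMA-LGK list held 2, of 821 and 516 bp. H3K4me3 differed in the reverse direction at all 3, with 382 and 1097 bp at UGT85A2, 503 and 2631 bp at UGT85A5, and 42 and 1862 bp at UGT85A3. Next to them, a region of 4172 bp in WT against 3887 bp in FAMA-LGK over UGT85A7 was present in both. These genes are close copies of one another, so reads may have been divided between them. Over the 64 UGT genes of the list 23 were called in both, with a median change of -54 bp, and UGT73C1 (0 and 953 bp) and UGT71D1 (0 and 783 bp) were called in FAMA-LGK alone, the former not at a −log10 q of 5 or more.

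Cuticle, wax and suberin genes were called in both at 27 of 75, such as FAR4 of suberin (3758 and 4459 bp). In WT alone were 3 genes of very-long-chain fatty acid elongation, KCS1 (1230 and 0 bp), KCS8 (899 and 0 bp) and KCS19 (824 and 0 bp). In FAMA-LGK alone was KCS2 of the same family (0 and 446 bp). The 3 genes are 4% of the list (exact interval 0.833 to 11.2%), an interval that holds the background of 1.39%. None of these KCS genes was called in either list with the stronger 50% of peaks. H3K4me3 at KCS19 was 154 bp in WT against 1567 bp in FAMA-LGK, while at KCS1 it was 1924 and 1892 bp. CER1, of alkane synthesis, was called in both, with 3149 and 2003 bp. SUS3, a sucrose synthase gene outside these lists, had 671 and 2626 bp, and its H3K4me3 was 1548 bp in WT against 0 bp in FAMA-LGK.

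Expansins and XTHs, which loosen and remodel the cell wall, were called in both at 31 of 69. In WT alone were 3, or 4.35% (exact 95% interval 0.906 to 12.2%), an interval that holds the background of 1.39%, and in FAMA-LGK alone none. Across settings the count was 1 to 3 in WT alone and 0 to 1 in FAMA-LGK alone. The 3 were EXPA5 (1183 and 0 bp), XTH7 (767 and 0 bp) and EXPB3 (471 and 0 bp), the last not called at a −log10 q of 5 or more. EXPA5 had H3K4me3 of 0 and 577 bp inside the stretch that H3K27me3 covered in WT. The pectin methylesterase gene PME5 had 1026 and 0 bp. Among 71 cellulose synthase and GH9 genes 27 were called in both; the endoglucanase genes GH9B8 (0 and 977 bp) and GH9B12 (0 and 787 bp) were called in FAMA-LGK alone, and CESA9 (617 and 0 bp) and GH9B13 (517 and 0 bp) in WT alone. H3K4me3 covered 1883 and 487 bp at GH9B8 and 1499 and 0 bp at GH9B12. CSLG3, a cellulose synthase-like gene called in both, had the largest difference towards WT of the named genes called in both, 2501 and 513 bp. The peroxidase gene PRXCB had 609 and 0 bp, and H3K4me3 of 0 and 2726 bp. Another peroxidase gene, Prx37, differed in the other direction, with 0 and 928 bp, and had 0 bp of H3K4me3 in each genotype.

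Transcription factors were marked in both genotypes at 31.5 to 60.8% of the members of each family list, and AP2/ERF factors held the largest number called in WT alone. Of 69 AP2/ERF genes 23 were called in both, 7 in WT alone and none in FAMA-LGK alone. The 7 are 10.1% of the list (exact 95% interval 4.18 to 19.8%) beside 1.39% of all genes; neighbouring genes are not independent. They were DREB1A (759 and 0 bp), RAP2.9 (654 and 0 bp), CBF1 (613 and 0 bp), EBP (585 and 0 bp), CRF3 (527 and 0 bp), CBF2 (428 and 0 bp) and ERF104 (423 and 0 bp), of which CRF3 and ERF104 fall outside the naming rule and were added after their values were seen. Across the other settings tried, 3 to 8 members were called in WT alone and at most 1 in FAMA-LGK alone. The members counted were not the same in every setting. With the stronger 50% of peaks RAP2.9 alone of the 7 kept its state, and the others were called in neither list. The regions of the 7 lay at percentiles of −log10 q in the WT list from 5.39 (CBF2) to 51.8 (RAP2.9).

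CBF2, DREB1A and CBF1, which switch on the response to cold, are neighbours on chromosome 4 and formed 1 of 3 runs of 3 genes called in WT alone. WT had 4 regions there, at 13015580 to 13016007, 13018257 to 13019015, 13020110 to 13021210 and 13021906 to 13022518, with folds of 1.84, 2.89, 2.30 and 1.90. FAMA-LGK had 1, at 13019971 to 13021220 between DREB1A and CBF1, which matches the third of these. The marks between the genes thus stayed listed in both, and those on the gene bodies in WT alone. H3K4me3 covered 833 and 889 bp at CBF2, 610 and 562 bp at DREB1A and 0 and 463 bp at CBF1. The coding parts of these copies are similar, so reads may have been divided between them. Of cold-induced genes in the stress list, COR15B had 0 bp in WT against 890 bp in FAMA-LGK, and COR27 589 and 0 bp.

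Among other factors called in WT alone were TCP14 (1086 and 0 bp), AT1G35560 (TCP23, 1079 and 0 bp) and DOF2 (860 and 0 bp). They were the 3 of 111 TCP, DOF, bZIP and GRAS genes so called, with none in FAMA-LGK alone and 35 in both. The 3 are 2.70% of the list (exact interval 0.561 to 7.70%), an interval that holds the background of 1.39%. Across settings the count was 0 to 5 in WT alone and 0 to 4 in FAMA-LGK alone. NAM, a NAC factor of seed integument (1133 and 0 bp), NAC042 (1093 and 0 bp) and NAP, of leaf senescence (867 and 0 bp), were the longest of 4 NAC genes in WT alone. NAC042 was not called at a −log10 q of 5 or more, and NAP had H3K4me3 of 0 and 851 bp. Of 125 MYB factors, MYB305 (973 and 0 bp), MYB59 (712 and 0 bp) and MYB20 (546 and 0 bp) were called in WT alone and MYB48 (0 and 811 bp) and MYB12 in FAMA-LGK alone. WRKY66 (646 and 0 bp) and WRKY43 (609 and 0 bp) were called in WT alone, the former not called at a −log10 q of 5 or more. bHLH39, of the iron deficiency response, had 0 and 631 bp. AT1G30260, counted under MADS factors with 556 and 0 bp, shares its synonym AGL79 with AT3G30260 and may not belong there.

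Of 95 homeobox genes 50 were called in both, with a median length difference of 0 bp, 18 longer and 12 shorter in FAMA-LGK. The largest differences by which genes were named include 3 of the BELL class. BLH2 had 1431 bp in WT against 4316 bp in FAMA-LGK, and BLH4 2007 and 4851 bp; both act in leaf margin shape. BLH1 had 0 and 810 bp. BEL1, an ovule identity gene, differed in the other direction, with 2459 and 807 bp. At BLH4 the FAMA-LGK list joined 2 WT regions of 539 and 1468 bp into 1 of 2667 bp and added 2 more, of 578 and 1606 bp, over the other end of the gene. The 2 added regions had folds of 1.79 and 1.695, at percentiles 5.68 and 3.16 of −log10 q in their list. At BLH2 a region of 1746 bp stood where WT had 1431 bp, and 2 more followed, of 1948 and 622 bp. H3K4me3 covered 1846 and 1729 bp at BLH2 and 2292 and 2020 bp at BLH4. Other genes with much more covered in FAMA-LGK were the MADS gene AGL79 (AT3G30260; 1811 and 4058 bp), the peptidase gene DAR2 (2370 and 4124 bp) and WRKY42 (1178 and 2828 bp, with H3K4me3 of 1024 and 0 bp). Other genes with less covered in FAMA-LGK were TBL15 (2707 and 1370 bp) and UNE17 (2724 and 1407 bp).

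Hormone genes were called in both at 67 of 172 for auxin, 32 of 53 for gibberellin, cytokinin and brassinosteroid metabolism and 29 of 87 for abscisic acid, ethylene and jasmonate. The influx carrier gene AUX1 had 1577 bp in WT against 0 bp in FAMA-LGK, with H3K4me3 of 1141 and 1995 bp. GH3.9, of a family that conjugates auxin, had 460 and 0 bp, with H3K4me3 of 1260 and 2851 bp. NIT4, a nitrilase, had 0 bp in WT against 1848 bp in FAMA-LGK, with H3K4me3 of 2803 and 2406 bp. PYL2, an abscisic acid receptor, was the 1 gene of its list called in 1 genotype alone, with 0 and 829 bp, and its H3K4me3 was 1474 and 726 bp. GA3OX4, of gibberellin synthesis, had 0 and 413 bp. EIR1 (PIN2), an auxin efflux carrier of the root, was covered over 4713 and 4269 bp.

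Signalling peptides and their receptors were mixed. Of 131 peptide genes 64 were called in both, 7 in FAMA-LGK alone and 4 in WT alone. The abscission peptide gene IDA had 771 bp in WT against 0 bp in FAMA-LGK, whereas its relative IDL1 had 14 and 645 bp. IDL1 lies at the edge of a domain listed in both genotypes. Its WT region, at chromosome 3, 9333725 to 9337444, lies within the FAMA-LGK region, 9330380 to 9338155. PROPEP4, precursor of a danger peptide, had 778 and 0 bp, CLE43 696 and 0 bp (not called at a −log10 q of 5 or more), and PSK4, a growth peptide, 0 and 703 bp. CLE21 (488 and 0 bp) was also called in WT alone. In FAMA-LGK alone were also PSK2 (0 and 626 bp), IDL3 (0 and 540 bp), RTFL18 (0 and 395 bp) and CLE18 (0 and 306 bp). So was CLE40 (0 and 551 bp), which was not called at a −log10 q of 5 or more. CHAL, a ligand of the stomatal receptors, was covered over its full 2481 bp in both. Of 99 cysteine-rich, wall-associated and lectin receptor kinases 13 were called in both, or 13.1% (exact interval 7.18 to 21.4%), below the 23.1% of all genes. In WT alone were 3, AT3G59740 (668 and 0 bp), CRK18 (587 and 0 bp) and CRK21 (559 and 0 bp). Of these, AT3G59740 was not called at a −log10 q of 5 or more. The 3 are 3.03% of the list (0.629 to 8.60%), an interval that holds the background of 1.39%. Across settings the count in WT alone was 0 to 5. Of 54 receptor-like proteins 9 were called in both and 2 in FAMA-LGK alone, RLP12 (0 and 1317 bp) and RLP33 (0 and 507 bp). Of 125 defensins and lipid transfer proteins 37 were called in both and 4 in each genotype alone, such as the lipid transfer gene LP1 (437 and 0 bp, H3K4me3 of 432 and 1147 bp) and LCR59 (0 and 572 bp). The calmodulin-like gene CAM8 had 0 and 670 bp, with H3K4me3 of 803 and 0 bp.

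Outside the lists, the longest stretches of 1 genotype alone held varied functions. These are genes with a symbol and no region of the other list within 1000 bp. Some genes without a symbol had more covered, such as AT3G62570 (1689 and 0 bp) and AT3G59435 (0 and 1794 bp). In WT the stretches lay on ZW9 (1588 and 0 bp), the polyadenylation factor gene PCFS4 (1548 and 0 bp) and RGTA2 of Rab prenylation (1366 and 0 bp). IQD26 (1310 and 0 bp) and SDH2-3, a seed form of succinate dehydrogenase (1285 and 0 bp), followed. The plastid aldolase gene FBA1, the photosynthesis list's gene in WT alone, had 1620 and 0 bp, with H3K4me3 of 732 and 1522 bp. In FAMA-LGK the stretches lay on the RNA helicase gene HEN2 (0 and 1576 bp) and the neighbouring cysteine metabolism genes CYSD2 (0 and 1494 bp) and DES1 (0 and 1322 bp). The D-type cyclin gene CYCD7;1 (0 and 1301 bp) and the phosphatase gene PP2C5 (0 and 1189 bp) followed. Then came the senescence nuclease gene BFN1 (0 and 1160 bp) and SCPL12 (0 and 1120 bp). At a −log10 q of 5 or more neither CYSD2 nor DES1 was called, and with equal numbers of peaks BFN1 was not called either.

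Genes called in 1 genotype alone were mostly scattered. Of the 381 in WT alone 55 (14.4%) had a neighbouring protein-coding gene with the same call, and of the 375 in FAMA-LGK alone 29 (7.73%). Next to a gene called in both lay 179 (47.0%) and 204 (54.4%), against 28.4% of genes called in neither. WT alone had 23 runs of 2 genes and 3 runs of 3, and FAMA-LGK alone 13 of 2 and 1 of 3. Besides the CBF genes, the runs of 3 in WT were AT3G12955 (SAUR74, not called at a −log10 q of 5 or more) with SMP1, a seed maturation gene, and AT3G12970, over 1741 bp of gene bodies, and AT5G59060, AT5G59080 and AT5G59070, over 1628 bp. The run in FAMA-LGK was AT3G59435, AT3G59440 and AT3G59450, over 2989 bp. AT3G59435 and AT3G59440 overlap, as do AT5G59080 and AT5G59070, so the same bases count for both.

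Of 326 miRNA genes 95 (29.1%) were covered by at least 50% in both genotypes, with 6 (1.84%) covered in WT alone and another 6 (1.84%) in FAMA-LGK alone. Under the same rule the shares of protein-coding genes were 19.3%, 1.2% and 1.18%, so the counts of 6 lie near the background. Covered in both were 7 of 10 MIR156 and all 4 MIR157 genes, whose products hold the juvenile phase, 4 of 5 MIR172 genes of the adult phase and flowering, 10 of 14 MIR169 genes and 4 of 6 MIR399 genes of phosphate starvation. In WT alone were MIR164b, which targets NAC factors of organ boundaries, MIR166f, MIR395a, MIR822, MIR829 and MIR8166. In FAMA-LGK alone were MIR165a, MIR169f, MIR395b, MIR397a, which targets laccases, MIR4240 and MIR5025. MIR165 and MIR166, which target the same leaf polarity factors, and 2 neighbouring genes of MIR395, a family of sulfate starvation, were each called on both sides, which with so few genes is a description of these loci. Around MIR395a and MIR395b the WT region at chromosome 1, 9362424 to 9363606, reached over MIR395a, the FAMA-LGK region at 9362282 to 9363118 ended before it, and a further FAMA-LGK region, 9364324 to 9365442, lay over MIR395b with a fold of 1.58. Hairpins are short, 90 to 337 bp at these 12 genes, so that a small shift of an edge decides a call.

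Larger H3K4me3 differences lay mostly in the reverse direction at genes whose H3K27me3 call differed, although many of these genes had none. Of the 381 genes called for H3K27me3 in WT alone, the H3K4me3 covered length was longer in FAMA-LGK at 202 (53.0%), shorter at 65 (17.1%) and equal at 114, and longer by 500 bp or more at 50 (13.1%) against 6 (1.57%) shorter. Of the 375 called in FAMA-LGK alone it was longer at 50 (13.3%), shorter at 142 (37.9%) and equal at 183, and by 500 bp or more longer at 7 (1.87%) and shorter at 55 (14.7%). At the 6329 genes called in both, 201 (3.18%) were longer and 205 (3.24%) shorter by as much, and at the 20359 genes called in neither 3.01% and 2.70%. For a difference of any length, genes called in neither were longer at 46.4% and shorter at 35.7%, so that the share shorter among the 375 was close to theirs. H3K4me3 is not printed above at every named gene. It differed in the same direction as H3K27me3 at some, such as RLP12 (0 and 863 bp) and GSTF3 (0 and 973 bp). Other such genes were BLH1 (1947 and 2323 bp) and WRKY43 (613 and 416 bp). The share with any H3K4me3 was 63.3% in WT and 70.3% in FAMA-LGK among the 381 genes, and 48.5% and 41.3% among the 375. Neighbouring genes share regions, and the H3K4me3 and H3K27me3 lists come from the same genotypes, so any difference in the cells sorted bears on both marks.

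**Figure D4:**
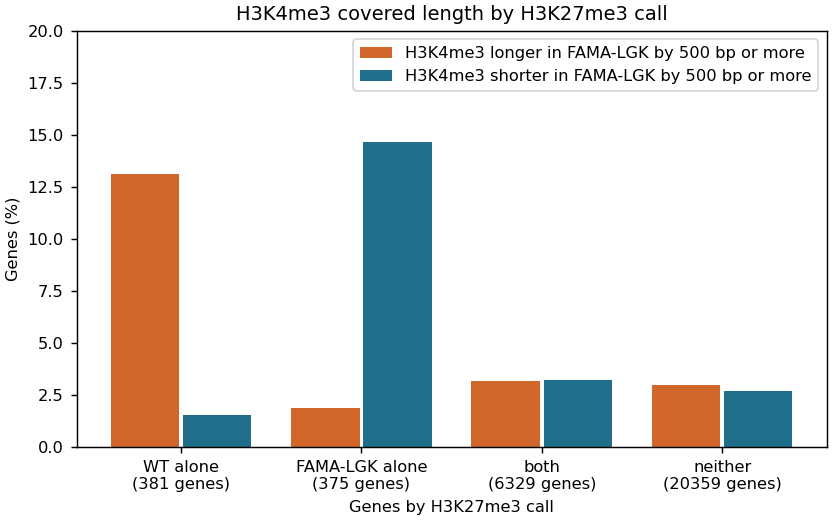
Share of genes (vertical axis, %) whose H3K4me3 covered length, over the body with 500 bp flanks, was longer (orange) or shorter (blue) in FAMA-LGK by 500 bp or more, for genes called for H3K27me3 in WT alone, in FAMA-LGK alone, in both or in neither (horizontal axis, numbers of genes in brackets). The orange bar is higher in the first group (13.1 against 1.57%), the blue bar in the second (14.7 against 1.87%), and both are near 3% in the other groups.

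The label of guard cells was set against marker genes. Of 25 genes of guard cell function, 24 had H3K4me3 in WT and 22 in FAMA-LGK, with a summed H3K4me3 covered length of 63429 and 46903 bp and a summed H3K27me3 covered length of 7840 and 11411 bp; H3K27me3 was called in both genotypes at 5 of them, and TGG1 and AT5G65590 (SCAP1) were called in FAMA-LGK alone. Of 5 mesophyll markers none had H3K27me3 and 4 had H3K4me3 in each genotype, summed 6526 and 6632 bp. Of 6 epidermis markers 2 had H3K27me3 in each, and their H3K4me3 summed to 11449 and 12823 bp. Of 6 vascular markers 5, and of 5 root markers 4, were called for H3K27me3 in both genotypes; H3K4me3 summed to 1603 and 1917 bp over the vascular and 2931 and 2806 bp over the root list. XCP1 of xylem had neither mark. Peak lists do not give the number of cells of each type, so the part of other cells in the differences was not tested, and fewer cells with a mark cannot be told apart from less of it per cell.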

How the data were processed

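ChIP-seq of H3K27me3 and H3K4me3 in sorted guard cells of 2 genotypes was analysed from the authors' 4 deposited peak lists. Per the submitters' processing notes, the tools were CASAVA 1.8.2, Bowtie2 and MACS2 and the build TAIR10, with no roles or settings. The combination of replicates and the peak threshold were not given in the sources used here. The deposited start, end and summit give positions. The authors' fold is a ratio of ChIP over control at the peak, their −log10 q gives its strength, and the deposited score was not used. These values were used within a list only. Peak numbers in the names ran to 9094 (WT) and 9096 (FAMA-LGK), above the 7386 and 7652 listed, so a gene without a listed peak may have had one that is not listed.

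Peaks that touched were merged into regions, which left their numbers unchanged. Regions overlapping by at least 1 bp were linked. Genes were placed and named with a RefSeq table of TAIR10.1, without strand; its fit was checked by WT H3K4me3 summits, of which 95.4 to 96.97% per chromosome lay in protein-coding genes, with no better fit at other shifts (steps of 100 bp, 3000 bp at most). Coordinates in the text are those of deposited peaks (TAIR10), counted from 1. H3K27me3 covered length was taken over the gene body and H3K4me3 over the body with 500 bp flanks; other genes than protein-coding ones were counted if covered by at least 50%. Counts and lengths are descriptions. Clopper-Pearson 95% intervals cover counting error only. The interval code was tested on simulated data. Python 3.11.15, pandas 2.3.3, numpy 2.4.6 and scipy 1.17.1 were used.

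The members and gene lists were chosen with earlier results of these data known. A few list members found only through a shared synonym were removed by hand. Named genes were taken from the sets below, and not every member of a set is named. The first set is, per direction, the 12 with the longest stretch called in 1 genotype and no region of the other list within 1000 bp. The second is the 8 with the largest lengthening and the 8 with the largest shortening among those called in both. Both of these sets hold only genes with a symbol. A further set is, for each list, the members called in 1 genotype alone (the 4 longest where more) and the longest called in both. The last sets are miRNA genes covered by at least 50% in 1 genotype alone and the 5 longest runs per direction. PTR6, GSTF3, IDL1, PSK2, CLE40, IDL3, CLE21, RTFL18 and CLE18, beyond the 4 longest of their lists, were added after their values were seen. No promoter, protein or miRNA sequence is printed.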

Additional observations from a re-analysis of the deposited data

How the results depend on the processing

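No replicate could be left out, since the lists give no value per replicate. No paired analysis was possible because each genotype has 1 list for its replicates together. The number of genes called in both was 6329, and 4160 when each list was restricted to its stronger 50% of peaks by −log10 q, which uses fewer peaks by construction. The 381 genes of WT alone and 375 of FAMA-LGK alone were 599 and 634 with a summit required inside the gene body, and stayed within 1.5 times of these counts in the other 8 settings. FAMA-LGK alone held more than WT alone with a summit required, with 500 bp flanks (532 against 499), at a −log10 q of at least 5 (370 against 366) and with the stronger 50% of peaks (381 against 322), and fewer in the other settings, such as 314 against 438 with equal numbers of peaks. Of the WT regions 92.5% overlapped a FAMA-LGK region, 91.2% with an overlap of at least 50% of the region, and 91.2% with equal numbers of peaks. Of the FAMA-LGK regions 89.5% overlapped, 87.98% with at least 50%, 90.6% after merging across gaps of 500 bp or less, and 91.04% with equal numbers of peaks. The median edge distance of 76 bp ran from 75 to 78 bp. The length change of FRO2 turned from -1250 to 1608 bp with the stronger 50% of peaks, and that of ABCG39 from 628 to -9 bp with equal numbers of peaks; the cause was not tested. Of the counts per gene list, 988 were within 1.5 times of the reported count and 173 were not. The rules that call a gene were added for the lists after seeing the data.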
